A study of Mus musculus with 9 samples.

Results

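The MHC class II antigen presentation genes measured here were 8 genes chosen by name among the 54532 genes of a kidney RNA-seq table: H2-Aa, H2-Ab1, H2-Eb1, H2-DMa, H2-DMb1, H2-DMb2, Cd74 and Ciita. All were found by symbol, and 7 of them were among the 12642 genes that passed the filter on low values, whereas Ciita did not pass. The mice were 4-month-old C57BL/6J males, and kidney messenger RNA was measured in 3 groups with 3 libraries in each. The first group was hindlimb unloaded and given 4-PBA (4-phenylbutyrate, a small fatty acid used as a chemical chaperone) by intraperitoneal injection at 100 mg/kg per day. The second group was hindlimb unloaded and given vehicle, and the third group was a ground control that was neither unloaded nor injected, as far as the labels say. Hindlimb unloading takes the weight off the hind limbs and is used as a ground model of weightlessness. The labels describe the libraries as replicates without saying that each came from its own animal, so p-values may measure a spread that is in part technical.

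Class II molecules are pairs of an alpha and a beta chain that carry peptides from endocytosed protein to the surface of antigen-presenting cells, where CD4+ T cells read them. The invariant chain, encoded by Cd74, binds new pairs in the endoplasmic reticulum and takes them to endosomes, where proteases cut it down to a short peptide that the DM molecule then exchanges for antigen. Ciita is the coactivator that class II promoters need, and interferon gamma induces it in many cell types. In kidney, class II is known mainly from dendritic cells and macrophages between the tubules, and injured tubule cells can also make it.

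Of the 8 genes, 6 lie in the MHC region of mouse chromosome 17 within 181018 bases (mm10, as the deposited coordinates give them). H2-Aa, at chr17:34282744-34287827 on the minus strand, and H2-Ab1, at chr17:34263209-34269418 on the plus strand, encode the alpha and beta chains of the I-A molecule. H2-Eb1, at chr17:34305877-34316199 on the plus strand, encodes the beta chain of I-E, whose alpha chain gene is defective in C57BL/6 mice. H2-DMa, at chr17:34135182-34139101, encodes the alpha chain of DM, and the neighbours H2-DMb2, at chr17:34143307-34151553, and H2-DMb1, at chr17:34153072-34160230, encode closely related beta chains, all on the plus strand. The 2 remaining genes, Cd74 and Ciita, lie on other chromosomes.

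The promoters are shown because class II genes share a short regulatory module, an X box followed by a Y box, through which Ciita acts. RefSeq promoter windows on GRCm38.p6, from 250 bases before to 50 bases after the start, were matched for 5 of the 8 genes, and 4 of them are printed 5′ to 3′ on the gene's strand. Capitals mark CNGATGATG (the X box letters of H2-Eb1, H2-DMb1 and H2-DMb2), TGACGTCA (a cyclic AMP element, held by H2-Aa) and TGATTGG (the Y box), and these letters were chosen after the sequences were seen. The H2-Aa window is chr17:34287774-34288073 on the minus strand, and the plus-strand windows are chr17:34305617-34305916 for H2-Eb1, chr17:34152941-34153240 for H2-DMb1 and chr17:34144999-34145298 for H2-DMb2.
H2-Aa: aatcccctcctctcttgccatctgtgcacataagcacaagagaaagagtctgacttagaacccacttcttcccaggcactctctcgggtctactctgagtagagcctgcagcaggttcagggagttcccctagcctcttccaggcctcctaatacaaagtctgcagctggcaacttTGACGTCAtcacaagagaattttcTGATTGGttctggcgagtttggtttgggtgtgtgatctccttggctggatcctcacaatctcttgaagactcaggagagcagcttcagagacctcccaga
H2-Eb1: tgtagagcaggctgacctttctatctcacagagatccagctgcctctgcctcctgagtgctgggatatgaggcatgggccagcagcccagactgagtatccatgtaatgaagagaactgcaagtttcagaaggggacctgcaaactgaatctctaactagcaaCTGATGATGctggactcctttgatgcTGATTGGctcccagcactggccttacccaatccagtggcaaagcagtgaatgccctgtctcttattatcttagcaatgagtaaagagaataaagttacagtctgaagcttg
H2-DMb1: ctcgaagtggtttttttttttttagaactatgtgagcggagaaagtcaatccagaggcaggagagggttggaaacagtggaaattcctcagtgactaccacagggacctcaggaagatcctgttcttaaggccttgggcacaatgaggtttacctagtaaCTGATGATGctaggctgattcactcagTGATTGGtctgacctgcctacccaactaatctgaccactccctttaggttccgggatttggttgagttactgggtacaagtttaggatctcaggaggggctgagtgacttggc
H2-DMb2: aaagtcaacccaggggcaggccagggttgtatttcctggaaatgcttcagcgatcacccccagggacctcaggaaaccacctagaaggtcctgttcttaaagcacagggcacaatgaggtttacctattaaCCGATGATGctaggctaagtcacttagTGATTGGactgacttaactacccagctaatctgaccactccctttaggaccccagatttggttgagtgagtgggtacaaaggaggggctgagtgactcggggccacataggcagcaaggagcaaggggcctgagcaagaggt

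The X box letters and the Y box stood together in the windows of H2-Eb1, H2-DMb1 and H2-DMb2, and the H2-Aa window held the cyclic AMP element and the Y box. As the X box letters were taken from H2-Eb1, H2-DMb1 and H2-DMb2, their absence does not show that H2-Aa lacks an X box. The gap between the first motif and the Y box was 17 bases in H2-Eb1, 18 bases in H2-DMb1, 18 bases in H2-DMb2 and 16 bases in H2-Aa. Searched on both strands of all 32851 promoter windows, CNGATGATG was in 0.956%, TGATTGG in 7.82%, and both together in 0.0639%, or 21 windows. TGACGTCA was in 1.79% of the windows and stood with the Y box in 0.152%. Neither of the H2-DMa windows, chr17:34122582-34122881 and chr17:34125268-34125567, held these letters, which says nothing of other sites outside them. Both windows end before the deposited start of H2-DMa at 34135182, so the sequence at that start was not searched. The windows of H2-DMb1 and H2-DMb2 were identical at 208 of 247 aligned bases (84.2%), against 56.1% to 66.8% for the other pairs compared.

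Reads per library, recovered from the deposited FPKM (reads per gene length, scaled by a constant of each library), numbered 7595631 to 15141784, and reads outside the mitochondrial genome numbered 1568888 to 12893802. The mitochondrial share was 15.2%, 13.7% and 67.1% in the 4-PBA libraries, 68.7%, 79.3% and 63.7% in the unloaded libraries, and 18.9%, 14.8% and 49.7% in the ground controls. The third 4-PBA library and the third ground control thus stood apart from the others of their groups. Each unloaded library had a higher share than every ground control and than the first and second 4-PBA libraries. As 4-PBA libraries also came from unloaded mice, the share did not follow unloading alone. Neither an effect of unloading nor one of 4-PBA can be told apart from this share where the unloaded libraries are compared. Fits with the share as a covariate are given with both comparisons of the unloaded libraries. All 7 proximal tubule markers passed the filter, so the tissue was kidney as labelled. Their summed FPKM was 309 to 1253 in 4-PBA libraries, 98.8 to 230 in unloaded libraries and 1041 to 1390 in ground controls. Limma called 5 of the 7 lower in unloaded libraries against ground controls, in a fit that called 10.2% of all genes. Cubn and Aqp1 were also lower, by log2 differences of -1.83 and -1.44, and were not called. Urothelium lines the renal pelvis, and its 6 markers summed to 31.6 to 160 FPKM in 4-PBA libraries. Their sums were 7.58 to 46.1 FPKM in unloaded libraries and 2.36 to 20.4 FPKM in ground controls. Limma called 0 of the 6 in each comparison. Their median log2 difference was 1.56 in 4-PBA against unloaded, 2.43 in 4-PBA against ground control and 0.67 in unloaded against ground control. The part of renal pelvis in the class II values was not tested. In bulk tissue, fewer cells of a type and less RNA per cell cannot be told apart.

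Cd74 had the highest FPKM of the 8 genes, a level per gene length, in every library except the third unloaded one, where H2-Eb1 was higher. It lies at chr18:60803848-60812646 on the plus strand, where it shares bases with Mir5107. Its mean was 126 ± 59.3 FPKM with 4-PBA, 54.2 ± 24.6 FPKM after unloading alone, and 75.5 ± 15.4 FPKM without unloading (SD, n = 3 each). By library Cd74, the invariant chain, had 194, 102 and 83.6 FPKM in the 4-PBA libraries, 59.2, 75.9 and 27.5 FPKM in the unloaded libraries, and 86.8, 81.6 and 58.0 FPKM in the ground controls. Each 4-PBA library lay above each unloaded library, while the ground controls overlapped with both other groups. The first 4-PBA library stood well above the rest.

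H2-Aa, the I-A alpha chain, had 55.3, 29.2 and 32.7 FPKM in the 4-PBA libraries, 23.9, 23.8 and 14.5 FPKM in the unloaded libraries, and 24.9, 31.5 and 16.0 FPKM in the ground controls. Again the 4-PBA libraries were all above the unloaded ones, and the ground controls overlapped with both. H2-Ab1, the I-A beta chain, had 67.9, 48.6 and 19.9 FPKM in the 4-PBA libraries, 21.5, 21.4 and 8.73 FPKM in the unloaded libraries, and 44.1, 30.5 and 23.6 FPKM in the ground controls. All unloaded libraries lay below all ground controls for H2-Ab1, and the third 4-PBA library fell inside the unloaded range. H2-Eb1, the I-E beta chain, had 94.9, 44.2 and 71.5 FPKM in the 4-PBA libraries, 33.8, 44.8 and 34.0 FPKM in the unloaded libraries, and 35.6, 46.9 and 17.7 FPKM in the ground controls. For H2-Eb1 the second 4-PBA library sat among the unloaded and control values, and the unloaded and control groups overlapped.

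The DM genes were lower than the chain genes and differed among themselves. H2-DMa, the DM alpha chain, had 7.22, 5.53 and 1.47 FPKM in the 4-PBA libraries, 1.53, 2.15 and 2.69 FPKM in the unloaded libraries, and 4.38, 4.60 and 3.51 FPKM in the ground controls. The unloaded libraries were all below the ground controls, and the 4-PBA libraries ran from the lowest to the highest value of the 9, with the lowest resting on 15 reads. H2-DMb1, a DM beta chain, had 11.1, 10.3 and 5.62 FPKM in the 4-PBA libraries, 0.113, 4.33 and 3.77 FPKM in the unloaded libraries, and 8.31, 6.13 and 2.52 FPKM in the ground controls. The 4-PBA libraries were all above the unloaded ones, and the first unloaded library rested on 1 read, with an exact Poisson 95% interval of 0.00286 to 0.628 FPKM that covers counting error only. H2-DMb2, the other DM beta chain, passed the filter only through libraries of unloaded mice, so its differences from ground control are given as descriptions with no p. It had 1.71, 1.05 and 2.16 FPKM in the 4-PBA libraries, 1.76, 1.13 and 0.862 FPKM in the unloaded libraries, and 0.210, 0.391 and 0 FPKM in the ground controls. Both unloaded groups lay above every ground control for H2-DMb2, where the library at 0 allowed up to 0.160 FPKM (a floor of 3 reads).

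Ciita, the class II coactivator, lies at chr16:10480059-10528418 on the plus strand, shares bases with Dexi on the other strand, and stayed under 1 FPKM in every library. It had 0.403, 0.251 and 0.774 FPKM in the 4-PBA libraries, 0.211, 0.640 and 0.263 FPKM in the unloaded libraries, and 0.286, 0.0963 and 0.747 FPKM in the ground controls, from 12 to 96 reads. The groups overlapped throughout. Across the 9 libraries the first 4-PBA library had the highest value of 6 class II genes, and the third 4-PBA library that of H2-DMb2 and Ciita.

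**Figure D1:**
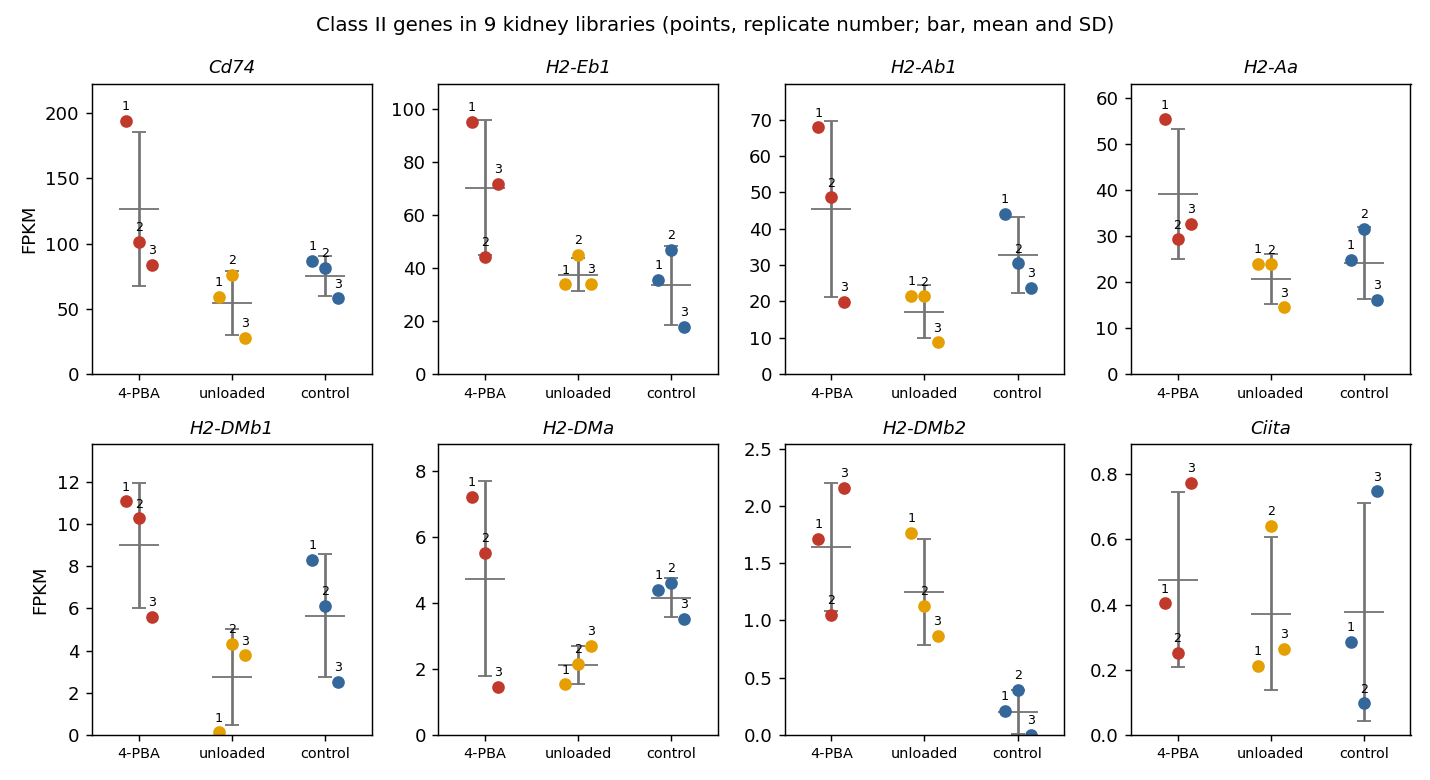
FPKM of the 8 class II genes in each library of hindlimb unloaded mice with 4-PBA, hindlimb unloaded mice and ground controls, each gene on its own linear axis. Points are libraries with their replicate number, and bars are group means with their SD. Cd74, H2-Aa and H2-DMb1 have all 4-PBA points above all unloaded points, and H2-DMb2 has all ground control points below both other groups.

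The first comparison set 4-PBA against vehicle in unloaded mice and asks what 4-PBA changed. Fitted log2(FPKM + 1) differences of all 7 tested class II genes were above 0, from 0.23 to 1.66, and none passed the adjusted threshold of 0.05. The largest were those of H2-DMb1, 1.66 ± 0.60 (SE, 95% interval 0.31 to 3.02, adjusted p = 0.169), H2-Ab1, 1.29 ± 0.50 (0.18 to 2.40, adjusted p = 0.192), and Cd74, 1.23 ± 0.44 (0.24 to 2.22, adjusted p = 0.167), all from limma. H2-Aa differed by 0.86 ± 0.36 (0.064 to 1.66, adjusted p = 0.216), H2-Eb1 by 0.83 ± 0.40 (-0.069 to 1.73, adjusted p = 0.282) and H2-DMa by 0.72 ± 0.42 (-0.21 to 1.65, adjusted p = 0.362). The intervals of H2-Aa, H2-Ab1, H2-DMb1 and Cd74 lay above 0, and those of H2-Eb1 and H2-DMa included it. H2-DMb2 gave the smallest difference, 0.23 ± 0.30 (-0.44 to 0.89, adjusted p = 0.708). As ratios of mean FPKM, 4-PBA over unloaded, H2-DMb1 was at 3.28, H2-Ab1 at 2.64, Cd74 at 2.33, H2-DMa at 2.23, H2-Aa at 1.89, H2-Eb1 at 1.87 and H2-DMb2 at 1.31.

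Among all 12642 genes tested, limma called 340, or 2.69%, in 4-PBA against unloaded, and it called 0 of the 7 class II genes, as did limma-voom on recovered reads. At an unadjusted p under 0.05 it gave 4 of the 7, namely H2-Aa, H2-Ab1, H2-DMb1 and Cd74, against 20.1% of all genes. Cd74, H2-Aa and H2-DMb1 were higher in every 4-PBA library than in any unloaded library, against 10.1% of all genes. The median difference of the 7 genes was 0.86, beside 0.018 over all genes tested. With libraries left out 1 at a time, H2-Ab1 ranged from 0.89 (without the third unloaded library) to 1.78 (without the third 4-PBA library), H2-DMa from 0.38 (without the first 4-PBA library, adjusted p = 0.701) to 1.25 (without the third), H2-DMb1 from 0.94 (without the first unloaded library) to 2.07, and Cd74 from 0.81 (without the third unloaded library) to 1.53. Without the third 4-PBA library, H2-Ab1 (adjusted p = 0.0327) and H2-DMa (adjusted p = 0.0236) were called, in a fit that called 10.4% of all genes. With libraries weighted by their fit limma called 5 of the 7, against 16.2% of all genes. With the mitochondrial share as a covariate the differences were 0.96 for H2-DMb1, 0.85 for Cd74, 0.59 for H2-Eb1, 0.54 for H2-Aa, 0.49 for H2-Ab1, 0.33 for H2-DMb2 and -0.17 for H2-DMa. Ciita, fitted without the filter on low values, differed by 0.10 ± 0.27 (limma, adjusted p = 0.864).

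The comparison of 4-PBA in unloaded mice with ground controls asks how far treated unloaded kidneys were from untreated ones. H2-DMb2 differed most among the class II genes, by 1.13 ± 0.30 (SE) on the log2(FPKM + 1) scale, and its mean of 1.64 ± 0.559 FPKM with 4-PBA stood at 8.17 times the 0.200 ± 0.196 FPKM of ground controls. H2-Eb1 followed with 1.09 ± 0.40 (95% interval 0.19 to 1.99, limma unadjusted p = 0.0229). The adjusted p of the other 6 genes was 1.00, so limma called 0 of them, and it called 0% of all genes in this comparison. At an unadjusted p under 0.05 it gave H2-Eb1, 1 of these 6 against 1.31% of all genes. H2-Aa differed by 0.67 ± 0.36 (-0.13 to 1.47), Cd74 by 0.66 ± 0.44 (-0.33 to 1.65), H2-DMb1 by 0.65 ± 0.60 (-0.70 to 2.00), H2-Ab1 by 0.34 ± 0.50 (-0.77 to 1.45) and H2-DMa by -0.013 ± 0.42 (-0.94 to 0.92). The intervals of these 5 genes included 0. H2-DMa turned to 0.084 with the mitochondrial share as a covariate. Leaving H2-DMb2 aside, 0 of the 6 genes had all 4-PBA libraries above the ground controls, against 4.37% of all genes.

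Unloading against ground control asks what loss of hind limb loading changed. H2-DMb2 averaged 1.25 ± 0.463 FPKM in unloaded kidneys and 0.200 ± 0.196 FPKM in ground controls, 6.24 times as much, with a log2 difference of 0.90 ± 0.30 (SE). The other DM genes lay the other way, H2-DMb1 with -1.02 ± 0.60 (95% interval -2.37 to 0.34, limma adjusted p = 0.286) and H2-DMa with -0.74 ± 0.42 (-1.67 to 0.20, adjusted p = 0.262). H2-Ab1 averaged 17.2 ± 7.33 FPKM in unloaded kidneys and 32.7 ± 10.4 FPKM in ground controls, a difference of -0.94 ± 0.50 (-2.05 to 0.17, adjusted p = 0.232). Cd74 differed by -0.57 ± 0.44 (-1.55 to 0.42, adjusted p = 0.415), H2-Aa by -0.19 ± 0.36 (-0.99 to 0.60, adjusted p = 0.750) and H2-Eb1 by 0.26 ± 0.40 (-0.64 to 1.16, adjusted p = 0.705). The intervals of these 6 genes included 0.

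Over all genes, limma called 1292, or 10.2%, after unloading, and 0 of the 6 class II genes other than H2-DMb2 passed, also by limma-voom. At an unadjusted p under 0.05 it gave 0 of these 6, against 29.8% of all genes. Unloaded libraries were all lower for H2-Ab1 and H2-DMa, 2 of 6 against 19.4% of all genes, and all higher for 0 of 6 against 18.3%. With libraries weighted by their fit H2-Ab1 and Cd74 passed, in a fit that called 31.5% of all genes. With libraries left out 1 at a time, H2-DMb1 ranged from -1.42 to -0.29 (without the first unloaded library, with its 1 read), H2-Ab1 from -1.15 to -0.54 (without the third unloaded library), H2-DMa from -0.86 to -0.59 and Cd74 from -0.86 to -0.15. H2-Eb1 turned to -0.13 without the third ground control. With the mitochondrial share as a covariate the differences were -0.24 for H2-DMb1, -0.15 for Cd74, -0.058 for H2-Ab1, 0.16 for H2-Aa, 0.25 for H2-DMa, 0.53 for H2-Eb1 and 0.79 for H2-DMb2. This comparison and that of 4-PBA with vehicle share the unloaded libraries, so their values for a gene are not independent.

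**Figure D2:**
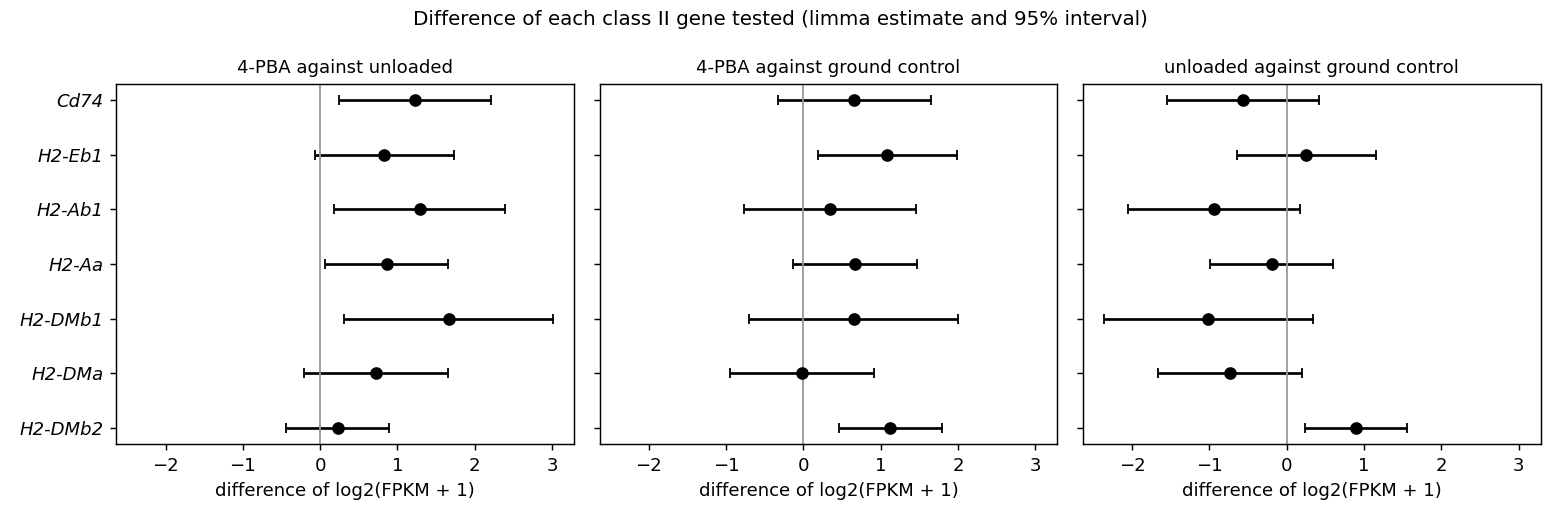
Log2(FPKM + 1) differences of the 7 tested class II genes with 95% intervals, from limma, for 4-PBA against unloaded, 4-PBA against ground control and unloaded against ground control. All 7 points lie above 0 in 4-PBA against unloaded, and in unloaded against ground control H2-DMb2 at 0.90 and H2-Eb1 at 0.26 lie above 0 while the other 5 lie below. H2-DMb2 passed the filter only through libraries of unloaded mice, so its intervals against ground control describe a gene chosen by that difference.

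Summed over the 8 genes, class II levels were 433, 241 and 218 FPKM in the 4-PBA libraries, 142, 174 and 92.3 FPKM in the unloaded libraries, and 205, 202 and 122 FPKM in the ground controls. The 4-PBA libraries were all above both other groups, and their mean was 2.18 times the unloaded mean and 1.69 times the control mean. No test is given for a sum over genes chosen as a list. Cd74, H2-Aa, H2-Ab1 and H2-Eb1 made up 91.8% to 97.5% of this sum in every library. Cd74 alone was 29.8% to 47.5% of it.

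The balance of H2-DMb1 and H2-DMb2, the DM beta chain genes, differed between libraries. Of the reads on both genes, H2-DMb2 took 15.1% of 484, 10.5% of 391 and 30.7% of 75 in the 4-PBA libraries, 94.7% of 19, 23.1% of 26 and 20.8% of 48 in the unloaded libraries, and 2.83% of 247, 6.84% of 234 and 0% of 41 in the ground controls. The exact binomial 95% intervals of the 9 shares were 12.0% to 18.6%, 7.63% to 13.96% and 20.5% to 42.4% with 4-PBA, 74.0% to 99.9%, 8.97% to 43.6% and 10.5% to 35.0% in unloaded libraries, and 1.15% to 5.75%, 3.96% to 10.9% and 0% to 8.60% in ground controls. All shares of H2-DMb2 in 4-PBA and unloaded libraries were above those of the ground controls, and 4-PBA and unloaded libraries overlapped. The pair was picked after its values were seen, so no test is given.

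The longest coding transcripts of H2-DMb1 and H2-DMb2 in GENCODE release 21 were identical at 1153 of 1219 aligned bases (94.6%), and 369 of the 1629 windows of 50 bases in H2-DMb1 transcripts, or 22.7%, also occurred in H2-DMb2. No other pair of the 8 genes shared such a window. How the authors' counting split reads between these copies is not given in the sources used here, so the values of each are uncertain. Summed, H2-DMb1 and H2-DMb2 had 12.8, 11.3 and 7.77 FPKM in the 4-PBA libraries, 1.88, 5.45 and 4.63 FPKM in the unloaded libraries, and 8.52, 6.52 and 2.52 FPKM in the ground controls. The sum was higher in each 4-PBA library than in each unloaded library, and the unloaded and control libraries overlapped.

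**Figure D3:**
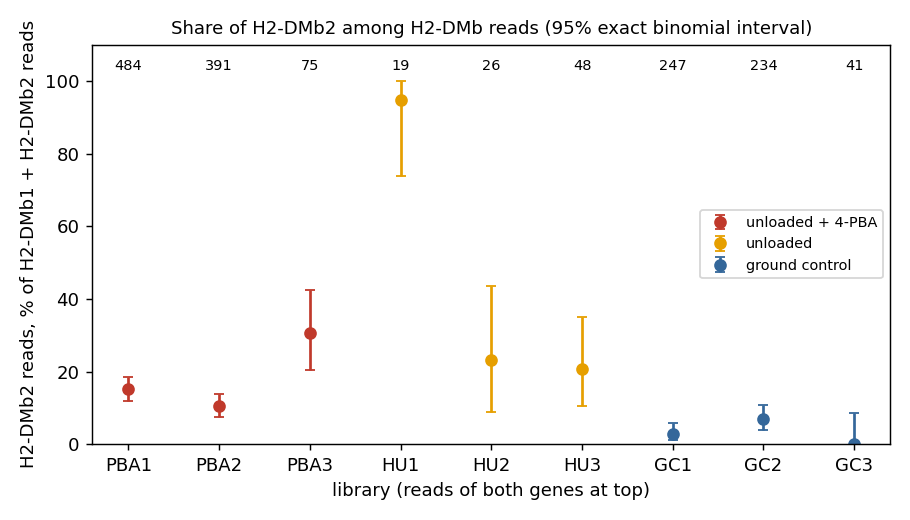
Share of H2-DMb2 in the reads on H2-DMb1 and H2-DMb2 (percent, with exact binomial 95% intervals) in each 4-PBA, unloaded and ground control library. The 3 ground controls lie at 0% to 6.84% and the 6 libraries of unloaded mice at 10.5% to 94.7%, with the highest resting on 19 reads.

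Differences between class II genes within a library depend little on the scale set for that library where both genes are well above the pseudocount of 1. On the log2(FPKM + 1) scale, H2-Aa minus H2-Ab1, the balance of the I-A chains, was -0.29, -0.71 and 0.69 in the 4-PBA libraries, 0.14, 0.15 and 0.67 in the unloaded libraries, and -0.80, 0.046 and -0.53 in the ground controls. Cd74 minus H2-Ab1 was 1.50, 1.05 and 2.02 in the 4-PBA libraries, 1.42, 1.78 and 1.55 in the unloaded libraries, and 0.96, 1.39 and 1.26 in the ground controls. In both cases the unloaded libraries were all above the ground controls, by means of 0.75 and 0.38, and the 4-PBA libraries overlapped with the unloaded ones.

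An exact two-sided permutation test gave p = 0.1 for each of these unloaded against control differences, the smallest that 3 against 3 allows, and 0.6 after Benjamini-Hochberg adjustment over the 12 tests made on 4 pairs. H2-DMa minus H2-Ab1 was -3.07, -2.93 and -3.08 in the 4-PBA libraries, -3.15, -2.83 and -1.40 in the unloaded libraries, and -3.07, -2.49 and -2.45 in the ground controls, with all groups overlapping. Ciita minus H2-Ab1 was -5.62, -5.31 and -3.56 in the 4-PBA libraries, -4.21, -3.77 and -2.95 in the unloaded libraries, and -5.13, -4.84 and -3.82 in the ground controls, also with overlap, but as Ciita lay under the pseudocount this difference mostly restates H2-Ab1. H2-Eb1 minus H2-Ab1, a pair chosen after its values were seen and given without a test, was 0.48, -0.13 and 1.80 in the 4-PBA libraries, 0.63, 1.03 and 1.85 in the unloaded libraries, and -0.30, 0.61 and -0.40 in the ground controls. H2-Eb1 was thus higher relative to H2-Ab1 in each unloaded library than in each ground control.

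**Figure D4:**
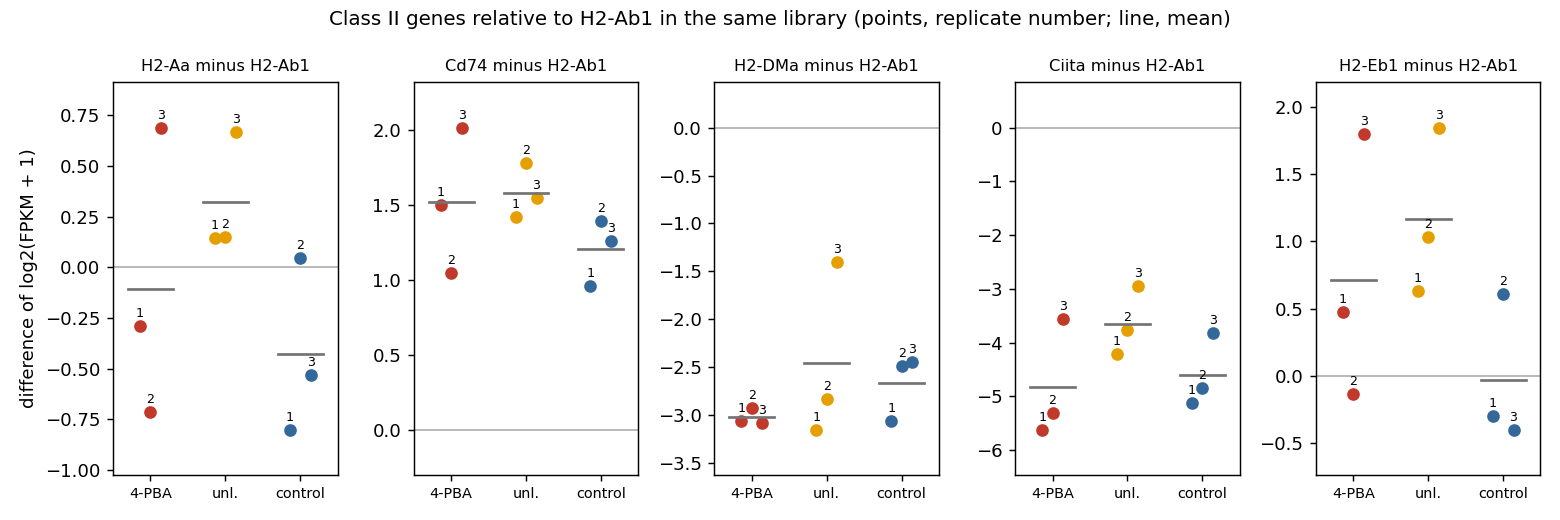
Log2(FPKM + 1) differences between pairs of class II genes within each 4-PBA, unloaded and ground control library, each pair on its own axis; points are libraries with their replicate number and lines are group means. For H2-Aa minus H2-Ab1 the unloaded points (0.14 to 0.67) lie above the ground controls (-0.80 to 0.046).

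The genes that work with class II molecules were searched by lists of their roles. Of 12 symbols of peptide loading and editing, 9 were in the table and 5, all proteases or reductases of the endosome, passed the filter on low values: Ctss, Ctsl, Ctsb, Lgmn and Ifi30. None of the 5 passed limma's adjusted threshold in any comparison, and their median log2 difference was 0.76 in 4-PBA against unloaded, -0.10 in 4-PBA against ground control and -0.94 in unloaded against ground control, beside 0.018, -0.0039 and -0.033 over all genes tested. Lgmn, which makes early cuts in the invariant chain, had 108, 105 and 51.0 FPKM in the 4-PBA libraries, 26.0, 50.5 and 36.1 FPKM in the unloaded libraries, and 106, 111 and 61.3 FPKM in the ground controls. The unloaded libraries of Lgmn were below all others.

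Ctss, cathepsin S, which makes the last cuts in the invariant chain, had 12.5, 4.82 and 5.55 FPKM in the 4-PBA libraries, 5.30, 6.15 and 4.23 FPKM in the unloaded libraries, and 3.75, 5.75 and 3.16 FPKM in the ground controls, with all groups overlapping. H2-Oa and H2-Ob, the chains of DO, which holds DM back in B cells, stayed at or below 1.67 FPKM. H2-Oa was listed at 0 in all unloaded libraries, which had fewer reads, and rested on 11, 15 and 24 reads in ground controls. H2-Ea-ps, the defective I-E alpha chain gene, was listed at 0 in 8 libraries and had 5.15 FPKM from 11 reads in the second unloaded library.

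The transcription factors that bind class II promoters, such as the RFX and NF-Y subunits, had 10 of 11 listed genes tested and 0 called by limma in each comparison, with medians of 0.43 in 4-PBA against unloaded, 0.33 in 4-PBA against ground control and -0.21 in unloaded against ground control. Among 9 of 11 tested genes of the interferon gamma axis, which induces Ciita, Ifngr2, a receptor chain, rose in unloaded against ground control by 1.26 (limma adjusted p = 0.0491). Ifngr2 had 7.38, 8.10 and 6.26 FPKM in unloaded libraries and 1.69, 2.27 and 3.59 FPKM in ground controls, without overlap. Ifngr2 was called in 8 of 20 alternative fits and in 2 of the 9 that left out 1 library each. It was at 0.41 (adjusted p = 0.537) when scaled to all reads, a scaling that moved the median of all genes to -0.78. Ifng itself was listed at 0 in 7 of 9 libraries. Of 7 co-stimulation genes 3 were tested and 0 called.

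In the class I pathway, 11 of 12 genes were tested, and both peptide transporter subunits differed after unloading, in opposite directions. Tap1 had 2.80, 2.68 and 3.19 FPKM in the 4-PBA libraries, 0.214, 0.939 and 0.350 FPKM in the unloaded libraries, and 3.09, 1.31 and 3.27 FPKM in the ground controls. It was higher by 1.40 in 4-PBA against unloaded and lower by 1.22 in unloaded against ground control. Tap2 had 3.60, 2.31 and 4.45 FPKM in the 4-PBA libraries, 5.63, 7.31 and 4.72 FPKM in the unloaded libraries, and 2.31, 2.09 and 1.81 FPKM in the ground controls, and it rose by 1.15 in unloaded against ground control (limma adjusted p = 0.0291). The unloaded libraries were thus the lowest of all for Tap1 and the highest of all for Tap2. Tap1 had passed the filter only through 4-PBA and control libraries, so its differences from unloaded libraries are given as descriptions with no p. Tap2 was called in 11 of 20 alternative fits of unloaded against ground control and was at 0.31 (limma adjusted p = 0.554) when scaled to all reads.

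Markers of cells that carry class II were read as sums. Summed FPKM of 10 macrophage markers was 50.02 to 92.8 in 4-PBA libraries, 20.9 to 50.6 in unloaded libraries and 38.9 to 52.5 in ground controls. Csf1r had 4.77, 6.84 and 4.59 FPKM in unloaded libraries and 11.7, 8.32 and 14.1 FPKM in ground controls, without overlap. Fcgr1 was listed at 0 in all unloaded libraries and rested on 11, 22 and 23 reads in ground controls. In the same list Mrc1 had 1.63, 2.12 and 0.740 FPKM in unloaded libraries and 0.452, 0.701 and 0.244 FPKM in ground controls, so it lay the other way without overlap. Limma called 0 of the 9 tested, with a median of 0.77 in 4-PBA against unloaded and -0.36 in unloaded against ground control. The 9 dendritic cell markers summed to 3.57 to 5.81 FPKM in 4-PBA libraries, 2.25 to 3.02 FPKM in unloaded libraries and 3.45 to 9.79 FPKM in ground controls. Clec10a, Ccr7 and Cd209a were listed at 0 in all unloaded libraries, and these 3 are named for that value. In ground controls Clec10a rested on 7, 40 and 40 reads, Ccr7 on 6, 4 and 9, and Cd209a on 15, 26 and 11. In 4-PBA libraries Clec10a rested on 43, 1 and 36 reads, Ccr7 on 16, 4 and 0, and Cd209a on 63, 5 and 0. Flt3 of that list lay the other way, with 0.488, 0.260 and 0.716 FPKM in unloaded libraries and 0.0166, 0.0744 and 0.0444 FPKM in ground controls. Zbtb46 had 1.00, 0.453 and 0.953 FPKM in unloaded libraries and 0.622, 0.741 and 1.47 FPKM in ground controls. These groups overlapped for Zbtb46, and also for Clec9a. Unloaded libraries had 1568888 to 3037972 reads outside the mitochondrial genome, and ground controls 5780141 to 12893802. A value of 0 at the lower depth does not show that a marker was absent. The 7 B cell markers summed to 1.12 to 10.97 FPKM with 4-PBA, 0.905 to 6.47 FPKM in unloaded libraries and 0.800 to 3.33 FPKM in ground controls. The part of these cells in the class II values was not tested.

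The 7 T cell markers summed to 3.28 to 4.30 FPKM in 4-PBA libraries, 10.1 to 19.2 FPKM in unloaded libraries and 0.662 to 2.74 FPKM in ground controls. Cd3g, of the T cell receptor complex, had 2.46, 11.4 and 4.37 FPKM in unloaded libraries and 0.0943, 0.0894 and 0.335 FPKM in ground controls. It passed the filter only through unloaded libraries and the third 4-PBA library, so no p is given, and Cd3d of the same complex was listed at 0 in all unloaded libraries. The 5 general leukocyte markers summed to 14.4 to 20.9 FPKM in 4-PBA libraries, 5.43 to 20.3 FPKM in unloaded libraries and 12.3 to 33.6 FPKM in ground controls, and Cd52 fell in unloaded against ground control by 1.30 (limma adjusted p = 0.0496, called in 4 of 20 alternative fits).

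**Figure D5:**
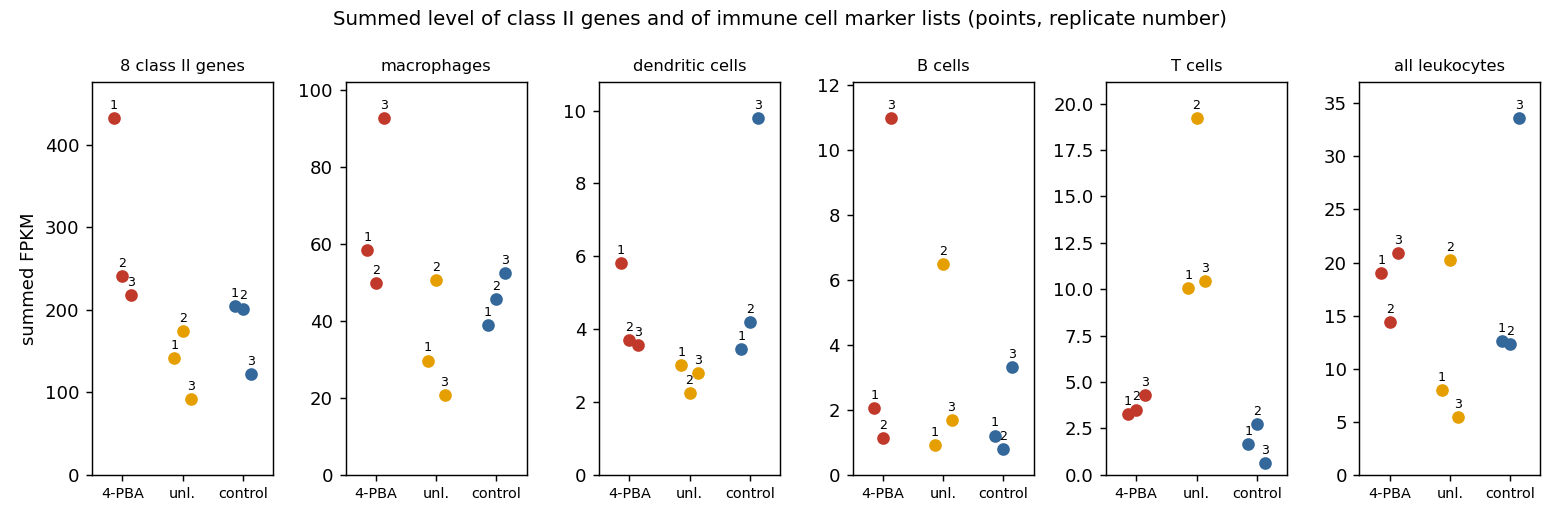
Summed FPKM of the 8 class II genes and of 5 immune cell marker lists in each 4-PBA (hindlimb unloaded), unloaded and ground control library, each on its own linear axis from 0; points are libraries with their replicate number. Macrophage sums reach 92.8 with 4-PBA, 50.6 in unloaded libraries and 52.5 in ground controls, and T cell sums are highest in the unloaded libraries (10.1 to 19.2).

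The genes most like class II in pattern were found by the mean absolute difference, over the 9 libraries, from the centred mean log2(FPKM + 1) of Cd74, H2-Aa, H2-Ab1 and H2-Eb1. Among 10921 protein-coding genes the closest were Pigt at 0.211, Mis12 at 0.214, Pdgfc at 0.222 and Krt8 at 0.241, beside a median of 0.592 over those genes. Of the genes in the profile, which being in it brings closer, Cd74 was at 0.130 and H2-Aa at 0.136. H2-Eb1 was at 0.317, with 54 protein-coding genes nearer, and H2-Ab1 at 0.325, with 75 nearer. The class II genes outside the profile were farther off, H2-DMa at 0.469, H2-DMb1 at 0.496, Ciita at 0.542 and H2-DMb2 at 0.586. The profile itself was 1.20, 0.36 and 0.18 in the 4-PBA libraries, -0.29, -0.10 and -1.03 in the unloaded libraries, and 0.13, 0.16 and -0.62 in the ground controls, so it was set apart most by the first 4-PBA and the third unloaded library. The values describe these 9 libraries, which share the group pattern and the scaling.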

How the data were processed

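Kidney poly(A) RNA was sequenced in paired-end libraries that mark the strand, per the labels' protocols. The submitters' processing notes list CASAVA, cutadapt, HISAT2 and the mm10 genome. The read counter, its strand setting and tool versions were not given in the sources used here. In the deposited table, FPKM values stand for 54532 genes, with 1 column for each library. Each value, multiplied by the length of its gene and a library constant, gave a whole number of reads within 0.01, from which depth followed (7595631 to 15141784 reads). Low class II genes rest on few reads, and intervals and floors cover counting error only.

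The 12642 genes that reached 1 FPKM in 3 or more libraries were fitted with limma 3.58.1 in R 4.3.3 on log2(FPKM + 1), a scale that understates changes of low genes, with an empirical Bayes trend and all 9 libraries in 1 fit of 3 groups. Genes were called at a Benjamini-Hochberg adjusted p under 0.05 over all genes tested. A count test had been foreseen and was not used because the values are FPKM. Differences within a library used an exact permutation test in scipy 1.17.1. The planned comparison of class II with Ptprc is not given, as Ptprc had 0.233 to 0.743 FPKM, under the pseudocount. The code was tested on simulated data with a smaller spread than the real one and with changes only in genes of higher level. That test checks the code and does not show how well changes can be found in these data.

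The genes, the lists and the rule for named genes (every class II gene, list members that were called or are named for their role, and the closest genes in pattern) were chosen with earlier results of these data known. Some list members were named outside this rule, after their values were seen, such as markers at 0 in all unloaded libraries or lying the other way. Exons and transcripts came from GENCODE mouse release 21 and promoters from RefSeq (GRCm38.p6). Alternatives covered pseudocounts of 0.1 and 4, the filter, scaling, the libraries in the fit, limma-voom on the recovered reads, a replicate block, library weights, the mitochondrial share as a covariate and libraries left out.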

Additional observations from a re-analysis of the deposited data

How the results depend on the processing

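Over 420 recomputed values of the class II genes, 389 kept their direction and their side of the threshold, 12 passed it only under the alternative, and 19 changed sign. Some alternatives cannot change a difference, so its direction was fixed in advance there. These are dropping the filter, fitting only the libraries compared, the replicate block and leaving out a library of the group not compared. With library weights, 5 class II genes were called in 4-PBA against unloaded (16.2% of all genes) and 3, with H2-DMb2 among them, after unloading alone (31.5% of all genes). H2-DMb2 passed the filter only through libraries of unloaded mice, so its call against ground control cannot be read as a test of a difference. In 4-PBA against unloaded, 2 (H2-Ab1 and H2-DMa) were called without the third 4-PBA library (10.4% of all genes), and 2 without both that library and the third ground control (PBA3 and GC3), a setting chosen after seeing the data that called 8.84% of all genes. Leaving out 1 library at a time gave 0 to 2 calls in 4-PBA against unloaded and 0 to 0 in both other comparisons. Among the alternatives that could change the differences in 4-PBA against unloaded, all 7 genes stayed above 0 except with the mitochondrial covariate, where H2-DMa was at -0.17. With that covariate 0.957% of all genes were called in 4-PBA against unloaded and 0.783% after unloading alone. The causes were not tested.

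In unloaded against ground control, H2-Aa turned to 0.023 with scaling to reads outside the mitochondrial genome and to 0.16 with the mitochondrial covariate, and ranged from -0.45 to 0.033 with libraries left out. There H2-Eb1 turned to -0.78 with scaling to all reads, which moved the median of all genes to -0.78, and to -0.13 without both GC3 and PBA3, and ranged from -0.13 to 0.55 with libraries left out. H2-DMa turned to 0.25 with the mitochondrial covariate. In 4-PBA against ground control, H2-Ab1 ranged from -0.021 to 0.84 with libraries left out. There H2-DMa, near 0, turned to 0.037 with a pseudocount of 4, 0.050 with scaling to reads outside the mitochondrial genome, 0.34 by limma-voom, 0.084 with the mitochondrial covariate, 0.48 with library weights and 0.42 without both GC3 and PBA3, and ranged from -0.36 to 0.51 with libraries left out.

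Scaling to all reads moved the median of all genes to 0.71 in 4-PBA against unloaded, and scaling to reads outside the mitochondrial genome moved it to 0.13 in unloaded against ground control. Calls over all genes ranged from 69 (without the first ground control) to 3983 (library weights) in unloaded against ground control, from 17 (no filter) to 2045 (library weights) in 4-PBA against unloaded, and were 0 throughout in 4-PBA against ground control.

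With the replicate block, 0 class II genes were called in each comparison, and 137 of all genes in 4-PBA against unloaded and 904 after unloading alone. Same-numbered libraries correlated at -0.20 to 0.29 in their deviations over 9 pairs, and 0 of 9 libraries correlated best with its own number in both other groups. These values show no sign that the numbers pair the samples, but with so few libraries they cannot settle it.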
